A study of Mus musculus with 6 samples.

Results

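The genes described here build the acid compartment of the cell: 41 genes for the proton pump, the hydrolases and the membrane proteins of the lysosome, among 24964 genes measured in mouse uterine luminal epithelium. They were taken from the table by symbol, and all 41 were found. The proton pump counts 17 of them, the hydrolases and other soluble proteins of the lysosomal lumen 18, and the lysosomal membrane proteins 6. The lysosome digests proteins, lipids and glycans delivered by endocytosis and autophagy, and its hydrolases work at an acid pH. That pH is set by the vacuolar proton pump, in which the cytosolic V1 sector splits ATP and the membrane V0 sector carries protons. Some subunits have isoforms of narrow tissue range that place the pump at the plasma membrane of acid-secreting cells, such as those of the kidney and the osteoclast.

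RNA was sequenced from luminal epithelium, the single sheet of cells facing the uterine lumen, to which the embryo attaches, cut out by laser capture on pregnancy day 4. The Foxo1dd group had 3 samples from Pgrcre/+Foxo1f/f females, in which Cre expressed from 1 allele of the progesterone receptor gene Pgr deletes floxed Foxo1 in cells that use that gene. Set against it was Foxo1ff, 3 samples from Foxo1f/f females with the same floxed alleles and no Cre. Females of both groups lived with littermates on normal chow up to 8 weeks of age, before mating. The Cre insertion is at Pgr, so the groups differ in a Pgr allele as well as in Foxo1, and these differences cannot be told apart. Samples are labelled as bioreplicates, without a statement of how many animals each one holds. All p-values therefore rest on the sample-to-sample spread, which may be partly technical.

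The deletion was visible in the target gene itself. Foxo1, a forkhead transcription factor restrained by insulin signalling, had 1.72, 0.942 and 1.22 FPKM in Foxo1dd samples, against 160.0, 118.5 and 110.8 FPKM in Foxo1ff samples, 100.2-fold lower by the means (limma adjusted p = 1.21e-07). Pgr moved the other way, with a mean of 31.5 ± 4.18 FPKM in Foxo1dd and 2.03 ± 0.400 FPKM in Foxo1ff (SD, n = 3 each, log2 change 3.42, limma adjusted p = 7.45e-07). FPKM, a normalised fragment count, scales each gene's reads by its length and by the depth of the library. From the spacing of the lowest values of short RNA genes, the depth divisors came to about 74000000 to 98600000 reads. On that scale every member other than Atp6v0c rested on about 868 reads or more in each library. The library Foxo1dd 2 stood apart, with 13995 genes above 0 against 15474 to 16062 in the other 5 libraries, and with the most Rn45s, the precursor of ribosomal RNA, at 40296 FPKM beside 23715 to 31304 FPKM elsewhere.

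The capture carried the markers of epithelium. The summed FPKM of 11 luminal and pan-epithelial markers was 3123 to 3594 in Foxo1dd and 2281 to 3056 in Foxo1ff, with Krt8 at 680 and 280 FPKM and Epcam at 393 and 554.5 FPKM. Stroma markers summed to 15.4 to 25.7 FPKM in Foxo1dd and 14.7 to 19.7 FPKM in Foxo1ff, and 0 of 7 endothelial markers reached a mean of 1 FPKM over all 6 samples. Glandular markers summed to 1.04 to 6.54 FPKM in Foxo1dd, against 51.8 to 209.8 FPKM in Foxo1ff. Most of the Foxo1ff sum was Spink1, at 0.124 FPKM in Foxo1dd and 93.3 FPKM in Foxo1ff. Of the 6 glandular markers 4 were tested, 3 fell and 1, Lif, rose (3.02 and 0.269 FPKM), while Foxa2 lay below the minimum (0.644 and 0.943 FPKM). Macrophages are rich in lysosomes, and their markers moved with genotype too. Of 15 macrophage and leukocyte markers 11 were tested, 8 fell and 3 rose. Ptprc, the pan-leukocyte CD45, had 0.294 FPKM in Foxo1dd and 3.59 FPKM in Foxo1ff. C1qa, a complement gene of macrophages, had 1.16 and 5.42 FPKM, and Tyrobp, a myeloid signalling adaptor, 2.08 and 5.01 FPKM. The 3 that rose were Cd14, at 152.8 and 78.0 FPKM, Laptm5, at 63.2 and 4.04 FPKM, and Cd68, at 7.495 and 4.73 FPKM, whose call was lost in 5 of the 6 fits that left out 1 sample. The list summed to 220.3 to 259.8 FPKM in Foxo1dd and 146.4 to 179.1 FPKM in Foxo1ff. Most of the Foxo1dd sum, 241.5 FPKM by the mean, was Cd14 and Laptm5, so the sum does not follow the 8 markers that fell. Mrc1 was listed at 0 in 2 of the 6 samples, and the other macrophage markers were above 0 in all 6. The part of these cells, and of gland cells, in the changes below was not tested. In bulk samples, fewer cells of a type and less RNA per cell cannot be told apart.

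Lysosomal genes changed in both directions, about as often as genes at large. Of the 41, 40 reached a mean of 1 FPKM and were tested with limma on log2(FPKM + 1), with p-values adjusted over all 11427 genes tested and a call at an adjusted p under 0.05. Among the 40, 10 were higher and 14 lower in Foxo1dd, while 56.4% of all tested genes were called, 22.2% as higher and 34.2% as lower. The share of members called is near the background and so is no result about the lysosome. The median log2 change (Foxo1dd minus Foxo1ff) was 0.01 over the 40 members and -0.15 over all tested genes. Rescaling the libraries by the median of ratios, which moved the median of all genes by 0.14, gave 14 members higher and 13 lower, where 56.8% of all tested genes were called, 27.9% higher and 28.9% lower. Without Foxo1dd replicate 2, 10 members were higher and 14 lower. Over the fits that left out each sample in turn, 2134 to 2714 of all genes tested were called higher and 3050 to 3751 lower. The groups did not overlap in 27 members, 12 higher and 15 lower, against 64.2% of all tested genes, 25.3% higher and 39.0% lower. All 24 called members were among these 27. Of the 40 tested members, 13 were called with a change of at least 1 log2 unit, beside 27.0% of all tested genes. Replicates of the members had a median coefficient of variation of 12.01% in Foxo1dd and 8.86% in Foxo1ff, against 16.0% and 12.4% over all tested genes. This comparison was not matched for expression level. In Foxo1dd single members ran from 0.338% for Atp6v0e to 63.6% for Smpd1.

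**Figure D1:**
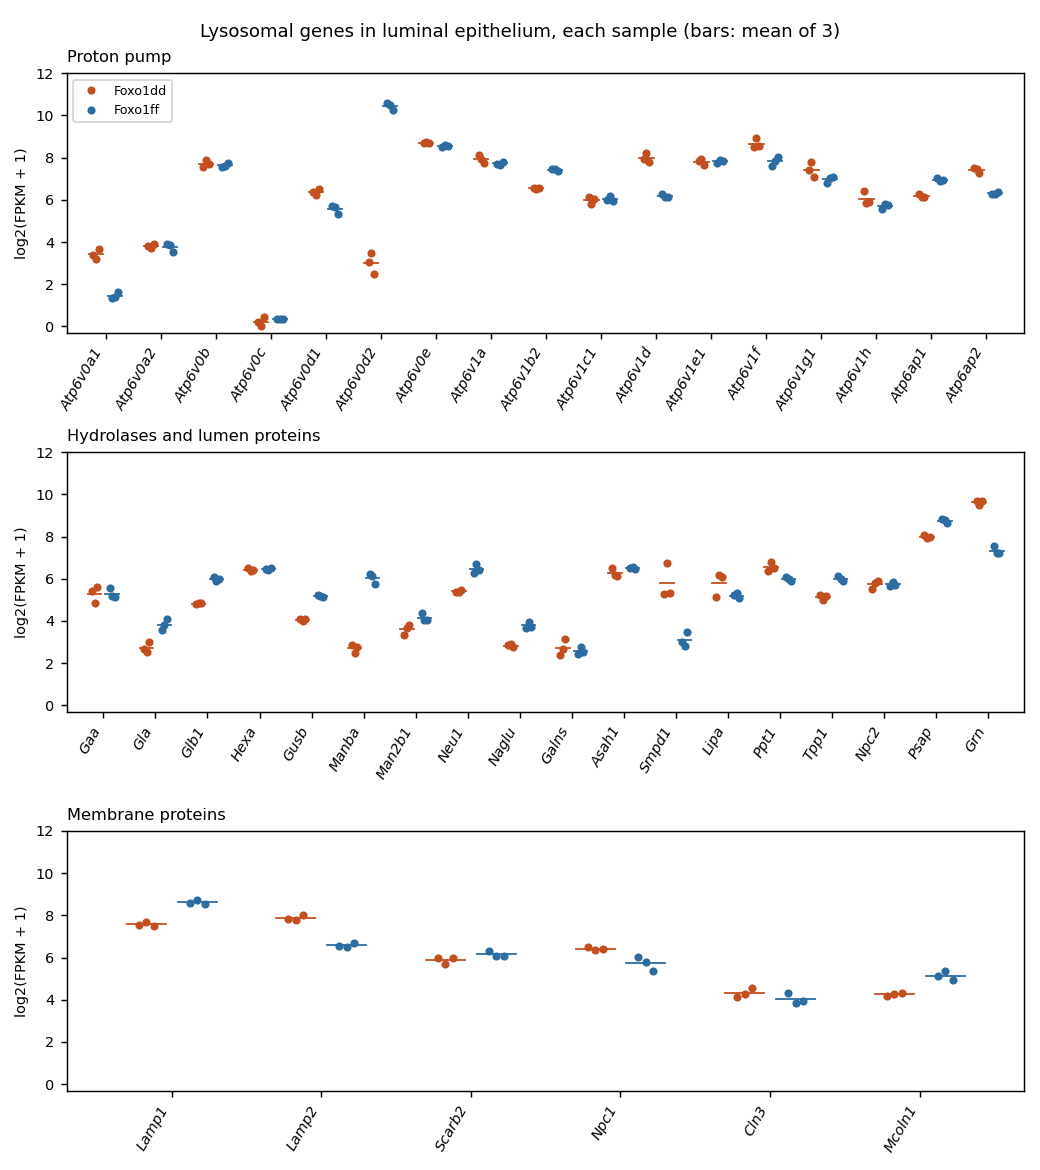
Expression of the 41 lysosomal genes as log2(FPKM + 1) in each of the 3 Foxo1dd and 3 Foxo1ff samples (points), with the mean of 3 as a bar, for the pump (top), hydrolases and lumen proteins (middle) and membrane proteins (bottom). Atp6v0d2 stands out with a mean of 7.35 FPKM in Foxo1dd and 1414 FPKM in Foxo1ff, while Atp6v0c is near 0 in both groups.

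In the proton pump, the most abundant subunit gene of the Foxo1ff samples, Atp6v0d2, fell by far more than any other, while 5 of the 16 tested pump genes rose, beside 22.2% of all tested genes. Atp6v0d2 encodes an isoform of the d subunit, the stalk piece that couples the V1 rotor to the proton-carrying ring, and is best known from osteoclasts, kidney and epididymis (chromosome 4, 19876841 to 19922605, minus strand, GRCm38). It had 7.25, 10.3 and 4.54 FPKM in Foxo1dd, against 1542, 1455 and 1243 FPKM in Foxo1ff. The groups lay far apart, and the Foxo1ff samples all exceeded the highest Foxo1dd sample by far. Atp6v0d2 was the most highly expressed of the 41 genes in Foxo1ff and ranked 36 in Foxo1dd. By the means it was 192.3-fold lower in Foxo1dd, and limma put the log2 change at -7.46 ± 0.23 (adjusted p = 1.21e-07, SE from 3 samples a group). This was fall number 7 in size among all 11427 genes tested. None of the 50-base words of its transcripts occurs in another annotated gene.

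The broadly expressed d isoform went the other way. Atp6v0d1 (chromosome 8, 105524465 to 105566047, minus strand) had 82.0, 74.3 and 90.8 FPKM in Foxo1dd and 50.5, 49.3 and 39.4 FPKM in Foxo1ff. The groups did not overlap, and the log2 change was 0.82 ± 0.14 (SE, adjusted p = 0.000878). Atp6v0d2 made up 8.13%, 12.1% and 4.76% of the summed d-isoform FPKM in Foxo1dd and 96.8%, 96.7% and 96.9% in Foxo1ff. The larger Atp6v0d1 level covered little of that loss, since both isoforms together came to 89.7 ± 5.40 FPKM in Foxo1dd and 1460 ± 160 FPKM in Foxo1ff (SD, n = 3 each), 16.3-fold lower.

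The a subunit, the membrane arm that forms the proton path and decides where in the cell the pump sits, also changed in isoform makeup. Atp6v0a1 (chromosome 11, 101009452 to 101063719, plus strand) had 9.56, 8.21 and 11.8 FPKM in Foxo1dd and 1.58, 1.59 and 2.13 FPKM in Foxo1ff. It was 5.58-fold higher (log2 change 1.97 ± 0.18, SE, adjusted p = 2.50e-05), and its lowest Foxo1dd sample lay well above the highest Foxo1ff sample. Atp6v0a2, the isoform of Golgi and endosomes, had 12.9, 12.2 and 14.1 FPKM in Foxo1dd and 14.1, 13.3 and 10.5 FPKM in Foxo1ff, overlapping groups with a change of 0.05 (95% interval -0.29 to 0.39). As a share of Atp6v0a1 and Atp6v0a2 together, Atp6v0a1 made up 42.8 ± 2.63% in Foxo1dd and 12.6 ± 3.78% in Foxo1ff (SD, n = 3 each).

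Neither was the main a isoform. Atp6v0a4, the a isoform of acid-secreting kidney cells and not among the 41, had 53.0, 30.7 and 75.9 FPKM in Foxo1dd and 225.6, 248.2 and 226.4 FPKM in Foxo1ff. It fell by 2.20 ± 0.27 on the log2 scale (SE, adjusted p = 0.000128), with no overlap of the groups. Tcirg1, the osteoclast a3 isoform, averaged 15.7 and 12.9 FPKM and was not called (adjusted p = 0.173). Of the summed FPKM of the 4 a isoforms, Atp6v0a4 held 56.3 ± 10.4% in Foxo1dd and 89.5 ± 1.16% in Foxo1ff (SD, n = 3 each). The value of Atp6v0a4 is uncertain, since its exons overlap D630045J12Rik on the same strand and Tmem213 on the other. Tmem213 had 237.3 FPKM in Foxo1dd and 844.9 FPKM in Foxo1ff, and the strand setting of the counting is not given.

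**Figure D2:**
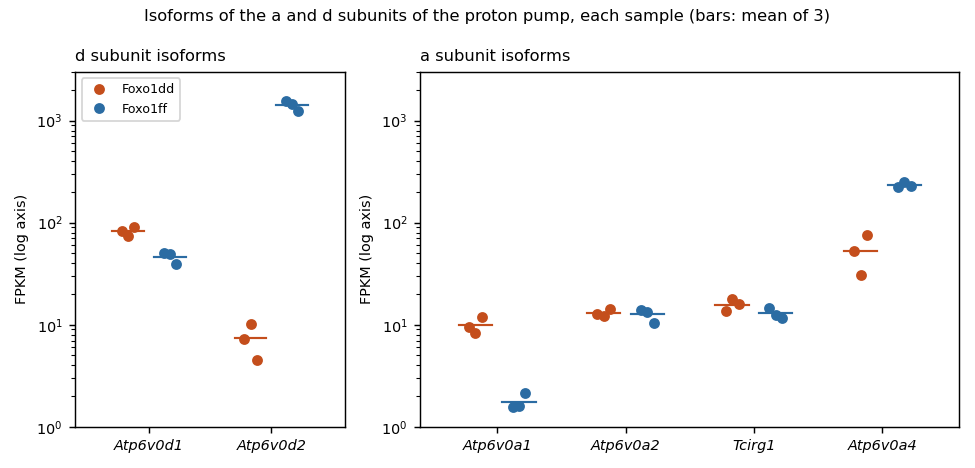
FPKM (log axis) of the d isoforms (left) and the a isoforms (right) of the proton pump in each Foxo1dd and Foxo1ff sample, with the mean of 3 as a bar. Atp6v0d2 and Atp6v0a4 lie lower in all 3 Foxo1dd samples, Atp6v0d1 and Atp6v0a1 higher, and Atp6v0a2 and Tcirg1 overlap between the groups.

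The remaining V0 members showed no call. Atp6v0b, a subunit of the proteolipid ring, averaged 209.9 ± 24.7 FPKM in Foxo1dd and 198.4 ± 14.3 FPKM in Foxo1ff, and Atp6v0e, a small membrane subunit, 419.1 ± 1.42 and 372.6 ± 12.8 FPKM (SD, n = 3 each). The estimated differences were 0.08 and 0.17 on the log2 scale, with 95% intervals of -0.21 to 0.36 and -0.07 to 0.41. Atp6v0e was called higher after median-of-ratios scaling (adjusted p = 0.0472). Atp6v0c, the main ring subunit, was listed at 0.145, 0 and 0.379 FPKM in Foxo1dd and 0.295, 0.260 and 0.286 FPKM in Foxo1ff. These levels are far below those of its partners, and 10.8% of the 50-base words of its transcripts also occur in other genes, the processed copies Atp6v0c-ps1 and Atp6v0c-ps2 among them. Its value is therefore uncertain, and it lay below the minimum for testing. Outside the 41, Atp6v0e2, a brain-rich isoform of the e subunit, had 11.8, 22.5 and 11.1 FPKM in Foxo1dd and 1.43, 1.07 and 1.38 FPKM in Foxo1ff, a log2 change of 2.75 ± 0.25 (SE, adjusted p = 2.47e-05).

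In the V1 sector, which splits ATP, 2 of 8 members rose and 1 fell, beside 22.2% and 34.2% of all tested genes. After median-of-ratios scaling 4 rose and 1 fell, beside 27.9% and 28.9%. Atp6v1d, the central rotor shaft (chromosome 12, 78840725 to 78861638, minus strand), had 242.5, 295.7 and 222.0 FPKM in Foxo1dd and 77.7, 68.9 and 68.7 FPKM in Foxo1ff. It was 3.53-fold higher with no overlap (log2 change 1.80 ± 0.13, SE, adjusted p = 7.29e-06). Atp6v1f, the small partner of that shaft, had 357.1, 485.1 and 372.3 FPKM in Foxo1dd and 194.3, 227.5 and 260.5 FPKM in Foxo1ff (log2 change 0.83 ± 0.16, SE, adjusted p = 0.00203). Of its 50-base words, 11.226% occur in another annotated gene, which leaves its level uncertain.

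Atp6v1b2, the broadly expressed B subunit that alternates with the A subunit in the ATP-splitting head, fell. Its values were 93.4, 88.9 and 94.0 FPKM in Foxo1dd and 172.8, 177.0 and 163.4 FPKM in Foxo1ff (log2 change -0.89 ± 0.10, SE, adjusted p = 9.90e-05). Its head partner Atp6v1a averaged 246.7 ± 32.8 FPKM in Foxo1dd and 211.4 ± 11.9 FPKM in Foxo1ff (SD, n = 3 each), a change of 0.22 (95% interval -0.08 to 0.51). Under quantile normalization Atp6v1a was called higher (log2 change 0.36, limma adjusted p = 0.043). The stator subunits Atp6v1c1 and Atp6v1e1 had changes of -0.03 and -0.02, whose signs turned under median-of-ratios scaling (0.13 for each). Atp6v1g1, another stator piece, missed the call at 175.4 ± 44.7 FPKM in Foxo1dd and 124.8 ± 12.4 FPKM in Foxo1ff (SD, n = 3 each, adjusted p = 0.0560), and 19.2% of its 50-base words occur in other genes. Atp6v1h, a regulatory subunit, averaged 66.8 and 51.5 FPKM, with no overlap but no call (adjusted p = 0.108). After median-of-ratios scaling Atp6v1g1 and Atp6v1h were called higher (adjusted p = 0.0424 and 0.0245). With Atp6v0e, they made 8 pump members higher on that scale, against 5 on the deposited one.

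The accessory proteins split. Atp6ap2, also known as the prorenin receptor, had 183.0, 172.8 and 153.6 FPKM in Foxo1dd and 76.8, 77.7 and 80.7 FPKM in Foxo1ff, a log2 change of 1.10 ± 0.11 (SE, adjusted p = 4.33e-05). Atp6ap1, which helps to assemble the V0 ring, had 76.1, 68.6 and 70.1 FPKM in Foxo1dd and 132.0, 117.2 and 122.4 FPKM in Foxo1ff, a log2 change of -0.78 ± 0.11 (SE, adjusted p = 0.000300). The groups overlapped for neither gene, and both lie on the X chromosome. In all, 5 of 16 tested pump members rose and 3 fell, beside 22.2% and 34.2% of all tested genes, with a median log2 change of 0.19. Summed over all 17, pump FPKM was 2510 ± 183 in Foxo1dd and 3398 ± 103 in Foxo1ff. Without Atp6v0d2 the sums were 2503 ± 180 and 1984 ± 65.1 FPKM (SD, n = 3 each), so the sign of the summed difference turned on that 1 gene.

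**Figure D3:**
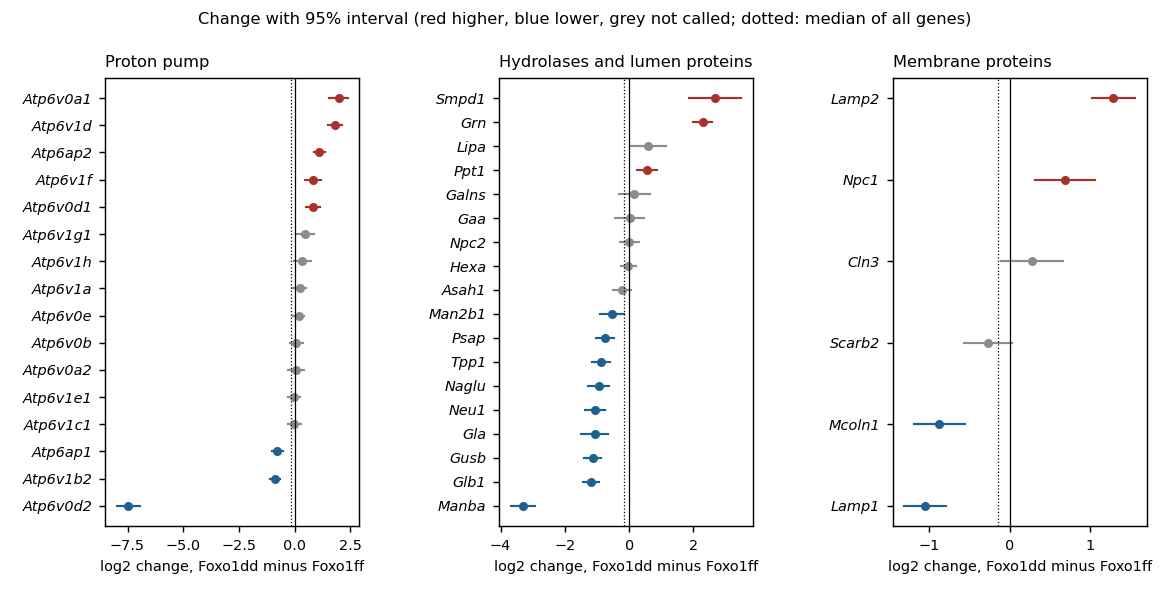
Change in log2(FPKM + 1), Foxo1dd minus Foxo1ff, of the 40 tested genes with its 95% limma interval, in red where called higher, blue where called lower and grey where not called; the dotted line is the median of all tested genes, -0.15. The scale differs between the panels, and Atp6v0d2 at -7.46 and Manba at -3.31 lie farthest below 0.

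Among the hydrolases, most of the genes that fell encode glycan-cutting enzymes. Of 10 glycosidases and sulfatases tested, 0 rose and 7 fell, with a median log2 change of -1.005, beside 34.2% of all tested genes called lower and a median of -0.15. Of the 4 lipid hydrolases 2 rose and 0 fell. Over the whole class of 18, 3 rose and 9 fell, beside 22.2% and 34.2% of all tested genes, with a median of -0.38. These counts describe the members and were not tested against other genes.

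Manba, the lysosomal beta-mannosidase, which removes the last mannose of N-glycan cores, changed most (chromosome 3, 135485611 to 135571404, plus strand). It had 6.31, 4.63 and 5.82 FPKM in Foxo1dd and 72.7, 69.0 and 52.6 FPKM in Foxo1ff. All 3 Foxo1dd samples lay far below the lowest Foxo1ff sample, 11.6-fold by the means (log2 change -3.31 ± 0.17, SE, adjusted p = 9.18e-07). Glb1, the acid beta-galactosidase, had 26.5, 27.6 and 27.4 FPKM in Foxo1dd and 67.7, 59.0 and 62.3 FPKM in Foxo1ff (log2 change -1.18 ± 0.11, SE, adjusted p = 2.76e-05). Its exons overlap those of Tmppe on the same strand, a gene at 3.20 FPKM in Foxo1dd and 6.35 FPKM in Foxo1ff, so part of its level is uncertain.

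Gusb, the beta-glucuronidase that trims glycosaminoglycans, had 15.8, 15.1 and 16.1 FPKM in Foxo1dd and 36.8, 35.4 and 34.3 FPKM in Foxo1ff (log2 change -1.13 ± 0.11, SE, adjusted p = 3.95e-05). Neu1, the lysosomal sialidase, had 40.4, 39.7 and 43.7 FPKM in Foxo1dd and 76.2, 103.7 and 83.1 FPKM in Foxo1ff (log2 change -1.06 ± 0.14, SE, adjusted p = 0.000183). For both genes every Foxo1dd sample lay below every Foxo1ff sample. Gla, the alpha-galactosidase lost in Fabry disease, averaged 5.72 ± 1.17 FPKM in Foxo1dd and 13.2 ± 2.53 FPKM in Foxo1ff, and Naglu, which cuts heparan sulfate, 6.13 ± 0.306 and 12.8 ± 1.43 FPKM (SD, n = 3 each, limma adjusted p = 0.00110 and 0.000451). Man2b1, the alpha-mannosidase, had 11.3 ± 1.98 and 16.9 ± 2.22 FPKM, and its call (adjusted p = 0.0208) was lost under median-of-ratios scaling (0.0741), without a filter (0.0822), and without Foxo1dd replicate 1 (0.0685) or Foxo1ff replicate 1 (0.0763).

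The other 3 genes of this kind were not called. Hexa, the alpha subunit of beta-hexosaminidase, averaged 85.6 ± 3.56 FPKM in Foxo1dd and 87.3 ± 3.17 FPKM in Foxo1ff (SD, n = 3 each), a change of -0.03 with a 95% interval of -0.27 to 0.21 and a sign that turned under median-of-ratios scaling (0.12). Gaa, the acid alpha-glucosidase that clears glycogen, and Galns, a sulfatase of keratan sulfate, had changes of 0.01 and 0.16, with intervals of -0.45 to 0.48 and -0.32 to 0.64.

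Gm2a, the activator protein that presents GM2 ganglioside for breakdown and one of the other lysosomal hydrolase genes followed, had 14.7, 17.7 and 14.4 FPKM in Foxo1dd and 84.0, 83.7 and 68.8 FPKM in Foxo1ff. It was 5.06-fold lower with no overlap of the groups (limma adjusted p = 2.17e-06).

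Among the lipid-cutting enzymes, Smpd1 and Ppt1 rose. Smpd1, the acid sphingomyelinase that releases ceramide, had 37.5, 105.3 and 39.4 FPKM in Foxo1dd and 7.12, 6.095 and 10.01 FPKM in Foxo1ff. Every Foxo1dd sample lay above every Foxo1ff sample, with Foxo1dd 2 far above its own group. The log2 change was 2.675 ± 0.36 (SE, adjusted p = 0.000236), and 2.20 without Foxo1dd replicate 2. Ppt1, a thioesterase that removes palmitate from proteins, had 81.7, 109.9 and 88.7 FPKM in Foxo1dd and 67.7, 61.5 and 58.1 FPKM in Foxo1ff (log2 change 0.57 ± 0.14, SE, adjusted p = 0.00685). Cap1 lies on the opposite strand of its exons, at 199.6 FPKM in Foxo1dd and 154.7 FPKM in Foxo1ff.

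Lipa, the acid lipase for cholesteryl esters, missed the call with 34.4, 70.2 and 66.4 FPKM in Foxo1dd and 35.9, 39.2 and 32.6 FPKM in Foxo1ff (adjusted p = 0.0663). Foxo1dd 1 lay within the Foxo1ff range and the other Foxo1dd samples above it. Without Foxo1dd replicate 1 Lipa was called (log2 change 0.91, adjusted p = 0.00121). Asah1, the acid ceramidase that acts after Smpd1, averaged 77.0 ± 10.1 FPKM in Foxo1dd and 90.1 ± 3.86 FPKM in Foxo1ff (SD, n = 3 each), a change of -0.23 (95% interval -0.51 to 0.05). It was called lower without Foxo1dd replicate 1 (log2 change -0.34, limma adjusted p = 0.0451).

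The soluble proteins that are not enzymes, and the peptidase, also differed from each other. Grn, the precursor of the granulin peptides, whose loss causes a lysosomal storage disease, was the most highly expressed member in Foxo1dd (chromosome 11, 102430315 to 102437048, plus strand). It had 818.8, 723.9 and 813.5 FPKM in Foxo1dd and 185.7, 148.6 and 149.2 FPKM in Foxo1ff, 4.87-fold higher with no overlap (log2 change 2.28 ± 0.13, SE, adjusted p = 1.69e-06). Fam171a2, on the opposite strand of its exons, had 61.3 FPKM in Foxo1dd and 19.4 FPKM in Foxo1ff. Psap, the precursor of the saposins that help lipid hydrolases reach their substrates, fell to 254.1 ± 16.8 FPKM in Foxo1dd, against 428.7 ± 31.8 FPKM in Foxo1ff (SD, n = 3 each, log2 change -0.75, adjusted p = 0.000557). Tpp1, a tripeptidyl peptidase, had 33.8 ± 3.12 and 62.7 ± 5.32 FPKM (SD, n = 3 each, log2 change -0.87, adjusted p = 0.000330). Npc2, the lumen carrier of cholesterol, differed by 0.01 (95% interval -0.29 to 0.31).

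Of the 6 membrane proteins, 2 rose and 2 fell, beside 22.2% and 34.2% of all tested genes. The main pair of lysosomal glycoproteins moved in opposite directions. Lamp1, the abundant coat glycoprotein of the lysosomal membrane (chromosome 8, 13159161 to 13175338, plus strand), had 184.5, 203.0 and 180.3 FPKM in Foxo1dd and 383.9, 428.5 and 369.5 FPKM in Foxo1ff. Lamp2, its relative that also serves chaperone-mediated autophagy (chromosome X, 38401357 to 38456454, minus strand), had 224.6, 219.8 and 260.3 FPKM in Foxo1dd and 91.55, 90.3 and 103.5 FPKM in Foxo1ff. The groups overlapped for neither gene. Log2 changes were -1.05 ± 0.12 for Lamp1 and 1.29 ± 0.12 for Lamp2 (SE, adjusted p = 6.89e-05 and 2.48e-05). The ratio of Lamp2 to Lamp1 FPKM was thus 1.22, 1.08 and 1.44 in Foxo1dd and 0.239, 0.211 and 0.280 in Foxo1ff. Lamp2 exceeded Lamp1 in all 3 Foxo1dd samples, and Lamp1 exceeded Lamp2 in all 3 Foxo1ff samples. Grtp1, opposite the exons of Lamp1, had only 2.62 and 2.43 FPKM.

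Npc1, the membrane protein that hands cholesterol out of the lysosome, had 90.3, 80.4 and 83.4 FPKM in Foxo1dd and 64.4, 53.8 and 40.8 FPKM in Foxo1ff (log2 change 0.69 ± 0.16, SE, adjusted p = 0.00620). Its call was lost without a filter on low genes (adjusted p = 0.0583), and exons of Rmc1 and Gm15956 lie on its opposite strand. Mcoln1, the lysosomal calcium channel TRPML1, had 17.3, 18.2 and 18.8 FPKM in Foxo1dd and 34.0, 39.9 and 29.2 FPKM in Foxo1ff (log2 change -0.88 ± 0.14, SE, adjusted p = 0.000659). Scarb2, the receptor that carries glucocerebrosidase to the lysosome, averaged 58.3 and 70.4 FPKM without overlap and without a call (adjusted p = 0.116). Cln3, whose loss causes juvenile Batten disease, averaged 19.1 and 15.6 FPKM in overlapping groups, a change of 0.28 (95% interval -0.11 to 0.67). It was called higher when limma weighted the samples by array weights (log2 change 0.41, adjusted p = 0.0297).

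Promoters were examined because TFEB and its relatives are known to drive lysosomal genes through an E-box, CACGTG, near the start of transcription. Promoter windows of 250 bases before to 50 after a start, from RefSeq on GRCm38.p6, were at hand for 32 of the 41 genes, with 36 starts. No window was at hand for Atp6v0d2, Atp6v0a2, Atp6v1b2, Atp6v1c1, Atp6v1g1, Atp6v1h, Npc1, Asah1 and Galns, so their promoters were not searched. The letters CACGTG, which read the same on both strands, occurred in 11 of 36 windows (30.6%), against 7.15% of all 32851 windows. The longer TCACGTG, which contains that E-box and was searched on both strands, occurred in the same 11 windows, against 3.765% of all. GTAAACA, a forkhead motif searched on both strands, occurred in 0 of 36 and in 3.65% of all windows. At so low a share few matches would be expected in 36 windows, so the 0 is no result about the members. Windows of the members were also richer in CpG, with a median of 17 CpG against 7 over all, so base composition differs. Of the 11 genes with an E-box 1 was called higher and 5 lower, and of the 21 genes without it, 8 and 7. Beside this, 22.2% of all tested genes were called higher and 34.2% lower. The 2 sets of promoters were not tested against each other. Of the 6 called genes with an E-box, 4 are shown, chosen after their values were seen: Lamp1 and Mcoln1, membrane proteins that fell and hold several, Glb1, a hydrolase that fell, and Atp6v0d1, the 1 that rose. Gla and Naglu, which also fell, hold E-boxes too. They are written 5′ to 3′ on the gene's strand, and capitals mark CACGTG with the adjoining T, or A on the other strand, where TCACGTG is complete.
Lamp1 (chr8:13158911-13159210, plus strand): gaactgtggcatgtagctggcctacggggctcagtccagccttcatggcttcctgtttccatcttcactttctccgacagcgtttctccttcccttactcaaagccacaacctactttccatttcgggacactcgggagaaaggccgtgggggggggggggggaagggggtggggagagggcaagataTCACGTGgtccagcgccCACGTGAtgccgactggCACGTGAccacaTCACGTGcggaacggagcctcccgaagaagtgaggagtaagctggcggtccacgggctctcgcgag
Mcoln1 (chr8:3500269-3500568, plus strand): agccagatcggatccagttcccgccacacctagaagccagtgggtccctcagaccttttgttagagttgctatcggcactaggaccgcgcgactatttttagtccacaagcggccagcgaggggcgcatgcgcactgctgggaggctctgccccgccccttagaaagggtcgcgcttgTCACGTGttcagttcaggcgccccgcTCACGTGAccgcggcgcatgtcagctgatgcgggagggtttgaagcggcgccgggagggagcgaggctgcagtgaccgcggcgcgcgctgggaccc
Glb1 (chr9:114400828-114401127, plus strand): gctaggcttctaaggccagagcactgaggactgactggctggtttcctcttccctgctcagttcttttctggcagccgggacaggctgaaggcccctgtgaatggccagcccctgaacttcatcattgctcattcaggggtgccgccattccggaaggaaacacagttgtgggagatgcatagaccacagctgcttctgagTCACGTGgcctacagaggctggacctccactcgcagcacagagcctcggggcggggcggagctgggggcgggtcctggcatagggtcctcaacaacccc
Atp6v0d1 (chr8:105566015-105566314, minus strand): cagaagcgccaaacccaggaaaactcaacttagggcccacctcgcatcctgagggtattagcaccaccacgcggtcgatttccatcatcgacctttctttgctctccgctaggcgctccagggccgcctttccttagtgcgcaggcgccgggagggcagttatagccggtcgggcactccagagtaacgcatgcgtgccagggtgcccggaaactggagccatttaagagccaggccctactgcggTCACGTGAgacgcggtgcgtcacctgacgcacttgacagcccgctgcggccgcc
The Lamp1 window holds 4 E-boxes, starting 61, 45, 28 and 15 bases before the annotated start, that of Mcoln1 2, and those of Glb1 and Atp6v0d1 1 each. A match of letters is a description of the window and does not show binding.

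**Figure D4:**
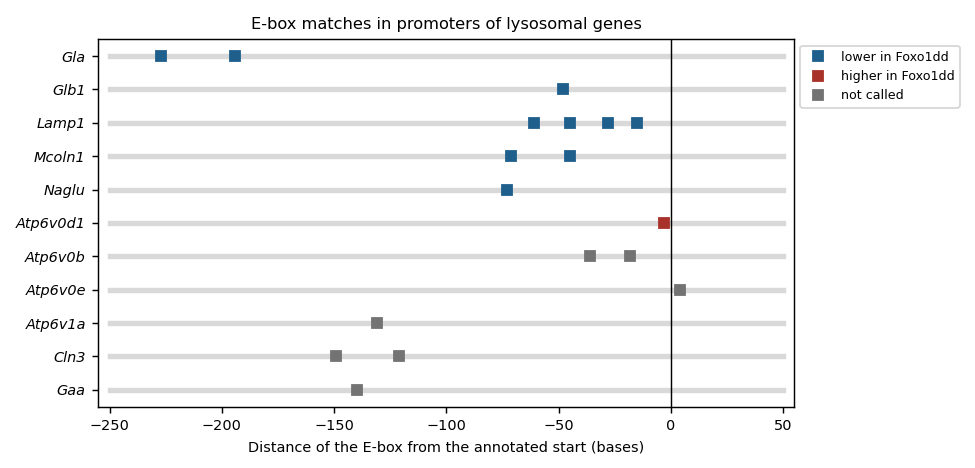
Distance of each CACGTG match from the annotated start of transcription (bases, negative before the start) in the promoter windows of the 11 lysosomal genes that hold one, coloured by the call in Foxo1dd against Foxo1ff. The 4 matches of Lamp1 lie within 61 bases before its start, and genes called lower, higher and not called all have matches.

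The genes that regulate and fill the lysosome were followed in lists chosen by function. Tfeb, the master regulator of lysosomal genes, had 7.03, 6.47 and 7.496 FPKM in Foxo1dd and 3.05, 2.74 and 3.13 FPKM in Foxo1ff, 2.35-fold higher (log2 change 1.008 ± 0.15, SE, adjusted p = 0.000442). Its relative Tfe3 averaged 13.25 and 16.99 FPKM and was not called (adjusted p = 0.0985), while Mitf and Tfec lay below 1 FPKM. Fnip2, a partner of folliculin in the control of these factors, fell to 3.54 ± 0.460 FPKM in Foxo1dd, against 14.7 ± 0.993 FPKM in Foxo1ff (SD, n = 3 each, adjusted p = 1.31e-05). Among the docking proteins that recruit mTORC1 to the lysosome, Lamtor3 and Lamtor4 rose by 0.72 and 0.53 on the log2 scale. Rragd and Rragb fell by 0.97 and 0.70, both at low levels (0.630 and 1.19 FPKM in Foxo1dd, 2.13 and 2.41 FPKM in Foxo1ff). Lamtor4 was not called when all genes were kept (adjusted p = 0.0584), and Rragb lost its call in 4 of the 6 fits that left out 1 sample (highest adjusted p = 0.127), with a pseudocount of 0.1 (0.0693) or 0.5 (0.0541), without a filter (0.199) and under median-of-ratios scaling (0.0909) or quantile normalization (0.129). In this list of 16, 14 were tested, 3 rose and 3 fell (3 and 2 after median-of-ratios scaling), while 56.4% of all tested genes were called (56.8% after that scaling).

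Sorting genes, which tag hydrolases with mannose 6-phosphate and carry them to the lysosome, had 1 of 13 genes called higher and 3 lower (3 and 3 after median-of-ratios scaling). Over all tested genes 56.4% were called. Those that fell were Gnptab, M6pr and Igf2r, while Gnptg and Nagpa, whose products also act in making the mannose 6-phosphate tag, were not called (log2 changes of -0.28 and -0.02, adjusted p = 0.142 and 0.903). Gnptab, the enzyme that places the tag, had 10.3, 6.85 and 8.02 FPKM in Foxo1dd and 24.4, 19.2 and 16.97 FPKM in Foxo1ff (log2 change -1.18 ± 0.19, SE, adjusted p = 0.000617). The receptors M6pr and Igf2r fell by 0.75 and 0.92 on the log2 scale, to 101.8 and 12.8 FPKM in Foxo1dd, against 170.0 and 25.5 FPKM in Foxo1ff. Sort1, the sortilin receptor, which binds progranulin and prosaposin, had 63.5, 50.1 and 77.9 FPKM in Foxo1dd and 13.2, 10.9 and 12.3 FPKM in Foxo1ff, 5.25-fold higher (adjusted p = 7.18e-06). For these 4 genes the groups did not overlap.

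Among 26 other lysosomal hydrolases, 8 rose and 9 fell, beside 22.2% and 34.2% of all tested genes, with a median log2 change of -0.06. Besides Gm2a, Arsb, a sulfatase of dermatan sulfate, fell to 0.714 ± 0.169 FPKM in Foxo1dd, against 9.56 ± 1.63 FPKM in Foxo1ff (SD, n = 3 each, adjusted p = 4.99e-06). Those that rose with the smallest p were Smpdl3a, a phosphodiesterase related to Smpd1, at 91.15 and 36.2 FPKM, Hyal1, a hyaluronidase, at 33.3 and 5.43 FPKM, and Man2b2, an alpha-mannosidase, at 30.35 and 10.5 FPKM (adjusted p = 8.21e-05, 0.000228 and 0.000351). Among 25 other lysosomal membrane proteins, 23 were tested, 8 rose and 6 fell, beside the same shares of all tested genes (11 and 4 after median-of-ratios scaling, beside 27.9% and 28.9%). Laptm5, a lysosomal protein otherwise used here as a leukocyte marker, had 65.5, 53.2 and 70.7 FPKM in Foxo1dd and 2.73, 3.602 and 5.78 FPKM in Foxo1ff (log2 change 3.71 ± 0.22, SE, adjusted p = 2.01e-06), while Ptprc was lower in Foxo1dd. Mcoln2, a channel related to Mcoln1, had 2.52, 2.64 and 2.51 FPKM in Foxo1dd and was listed at 0, 0.030 and 0 FPKM in Foxo1ff. Slc29a3, a nucleoside carrier, rose by 2.26 on the log2 scale, and Cd164, Spns1 and Cd63 fell by 1.08, 1.02 and 0.74. The call of Cd63, a tetraspanin, was lost without a filter (adjusted p = 0.0650).

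**Figure D5:**
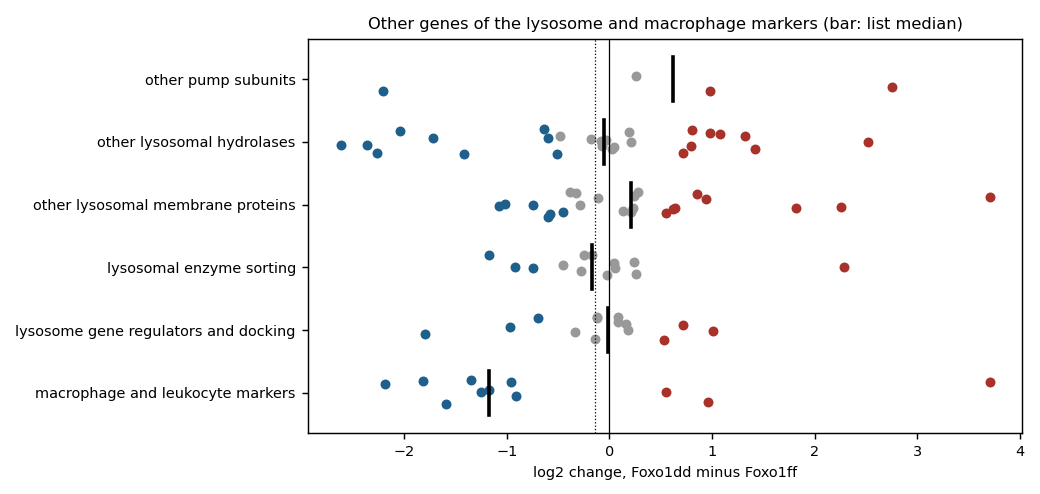
Log2 change (Foxo1dd minus Foxo1ff) of each tested gene in 5 further lists of lysosomal genes and in the macrophage and leukocyte markers, in red where called higher, blue where called lower and grey where not called; black bars are list medians and the dotted line is the median of all tested genes. The macrophage list has a median of -1.18, and its highest gene is Laptm5, which also stands in the membrane list.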

How the data were processed

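RNA-seq of 6 laser-captured samples was deposited by the authors as 1 table of FPKM. The submitters' processing notes name mm10, STAR 2.5.2b, featureCounts 1.5.0-p1 of Subread, DESeq2 1.12.4 and edgeR 3.28.0, with no role or order; for annotation, gene lengths, strand setting and further scaling nothing was given in the sources used here. Genes averaging 1 FPKM or more were compared on log2(FPKM + 1) by limma 3.58.1 (R 4.3.3; eBayes with trend, genotype the sole term), adjusted by Benjamini-Hochberg over all 11427. This step was tried on simulated data with few changed genes and no shift of scale, which does not check how calls depend on scaling. Since FPKM are no counts, count models were left aside. Depth was the largest step at which at least 80% of short-RNA values under 12 reads were whole within 0.05, and rests on 26 genes in Foxo1dd 2. Positions and shared 50-base words are from GENCODE M21 on GRCm38. Settings tried besides were a pseudocount of 0.1 or 0.5, keeping all genes, a 5 FPKM minimum, 2 scalings, 3 variance or weight settings, a replicate block and leaving out each sample. Full statistics go to Foxo1, Pgr, isoform pairs, the 5 called members of each class with the smallest p and those called higher. Of each further list up to 3 genes a direction were picked, not all of them given with full statistics. Others were named after their values were seen. The members and lists were chosen with earlier results of these data known. One gene that this rule names is not reported here.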

Additional observations from a re-analysis of the deposited data

How the results depend on the processing

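Of the 24 called members, 22 kept their call and direction under all 16 alternatives run; Npc1 and Man2b1 lost the call under some, and none turned. The number of pump members called higher, 5, became 8 under median-of-ratios scaling and 9 under quantile normalization. That of membrane proteins called higher, 2, became 1 without a filter. Over all tested genes, those called higher went from 2533 to 3184 under median-of-ratios scaling. Their number also rose under quantile normalization and fell without a filter. The pump and membrane counts thus moved the same way as those of all genes and are no result about the lysosome. The cause was not tested. Signs turned for 8 members that were not called. Under median-of-ratios scaling and quantile normalization the log2 changes became 0.13 and 0.10 for Atp6v1c1, 0.13 and 0.12 for Atp6v1e1 and 0.12 and 0.0816 for Hexa; with array weights they became 0.0169 for Hexa and -0.0947 for Npc2. Leaving out each sample gave ranges of -0.0651 to 0.13 (Atp6v0a2), -0.0138 to 0.15 (Atp6v0b), -0.0989 to 0.0759 (Atp6v1c1), -0.0894 to 0.0479 (Atp6v1e1), -0.0742 to 0.11 (Npc2), -0.14 to 0.23 (Gaa), -0.0585 to 0.0008 (Hexa) and -0.045 to 0.33 (Galns). In those fits 10 to 11 members were called higher and 13 to 14 lower, beside 2134 to 2714 and 3050 to 3751 of all genes tested.

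The labels do not say whether equal bioreplicate numbers mark pairs, and 3 samples a group are too few for correlations to decide it. Same-numbered deviations correlated at 0.123, 0.107 and -0.133, and not every sample correlated best with its own number. With the number as a replicate block, Atp6v1g1 (limma adjusted p = 0.0460) and Lipa (0.0358) were called higher as well. Among the members only Atp6v0c rested on few reads, about 109 at most in any library, and the cause of its low value was not tested. With 3 samples a group, uncalled differences are bounded by their intervals and are not shown to be absent.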
